A study of Mus with 8 samples.

Results

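The genes described here are the 10 core contractile genes of smooth muscle, Acta2, Actg2, Myh11, Myl9, Mylk, Tagln, Cnn1, Smtn, Lmod1 and Des. They were taken by name, through every array probe that the platform annotation assigns to one of them, which gave 21 of the 46237 probes. 1 further probe carries an older symbol, A930019C19Rik, that RefSeq pairs with both Mylk and a noncoding gene of the same locus, and it was left out. It was undetected, on 0 of 4 arrays of WT and 0 of 4 of KO.

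Smooth muscle cells shorten by sliding actin filaments, built from smooth muscle actin, along filaments of smooth muscle myosin. Calcium starts the cycle by switching on myosin light chain kinase, which phosphorylates the regulatory light chain. Many of these genes are known to be driven together by serum response factor and its partner myocardin, and aortic smooth muscle cells are known to lose contractile transcripts when they are grown in culture.

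RNA came from 8 passage 1 cultures of aortic vascular smooth muscle cells from male C57 black 6 mice, 8 weeks of age, grown in medium with serum, with 1 Illumina bead array per culture. All 8 cultures carried the floxed Tie2 gene (Tek). The 4 WT cultures lacked Cre, and the 4 KO cultures carried Cre under the promoter of SM22α, which is the protein encoded by Tagln, one of the 10 genes. Presence of Cre and loss of Tie2 therefore cannot be told apart in this contrast, and the labels do not say whether a culture came from 1 mouse or several. Each culture's label carries several numbers joined by slashes, whose meaning is not given, so each may be a pool of animals. What the p-values measure is thus the spread among cultures, which may be technical. 6 arrays, all 4 WT and KO replicates 1 and 2, lay on slide 1, and KO replicates 3 and 4 lay on slide 2.

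Values are log2 intensities after background correction and quantile normalization with neqc of limma, and differences are KO minus WT. Between 44.9% and 49.5% of probes were detected per array, at a detection p-value under 0.05. Tek, the deleted gene, ranged from 6.35 to 7.42 in WT and from 4.78 to 5.56 in KO, without overlap (adjusted limma p 0.81). Where its probe lies relative to the deleted part was not analysed here. WT replicate 2 stood apart: its mean correlation with the other arrays over the 11859 genes tested was 0.937, against 0.952 to 0.969 for the other 7 arrays. Contractile results are therefore given with and without that culture.

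Transcripts of all 10 genes were detected, though not each in every culture. 19 of the 21 probes were kept, meaning detected on at least 4 of the 8 arrays, and 18 of these were detected on all 8. The exception was the single probe of Cnn1, which was detected in 1 of 4 WT cultures and 3 of 4 KO cultures. The 2 probes not kept, a second Tagln probe and a second Myh11 probe, were detected on no array.

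At an adjusted limma p of 0.05, 0 of the 10 genes and 0 of the 11859 genes tested were called (0%). At an unadjusted p under 0.05 in either direction there were 2 of the 10, against 5.74% of all genes. The mean was higher in KO for 10 of the 10 genes by sign, against 49.7% of all genes, and their median log2 difference was 0.59, against -0.002 for all genes. Cnn1 is among the 10, though near background and detected in 1 of 4 WT and 3 of 4 KO cultures. With only probes detected on all 8 arrays, 9 of 9 genes were higher by sign, with a median of 0.67, against 0.001 for all genes. Without WT replicate 2 the mean was higher in KO for 8 of the 10, against 49.3% of all genes, and the median was 0.43. The 2 genes past the unadjusted threshold, Myl9 and Mylk, were higher in KO, as were 2.61% of all genes. That count was 0 of 10 without WT replicate 2, where 1.83% of all genes passed in that direction, and it ranged from 0 to 5 with 1 culture left out. It was 0 without WT replicate 3, KO replicate 1 or KO replicate 4, 1 without KO replicate 2 or KO replicate 3, and 5 without WT replicate 4. A log2 difference of at least 0.5 was reached by 6 of the 10, against 6.18% of all genes, and by 3 of the 10, against 4.16%, without WT replicate 2. For 0 of the 10 did the WT and KO cultures not overlap, against 1.61% that were higher in KO without overlap. The adjusted limma p of the 10 genes lay between 0.828 and 0.986.

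**Figure D1:**
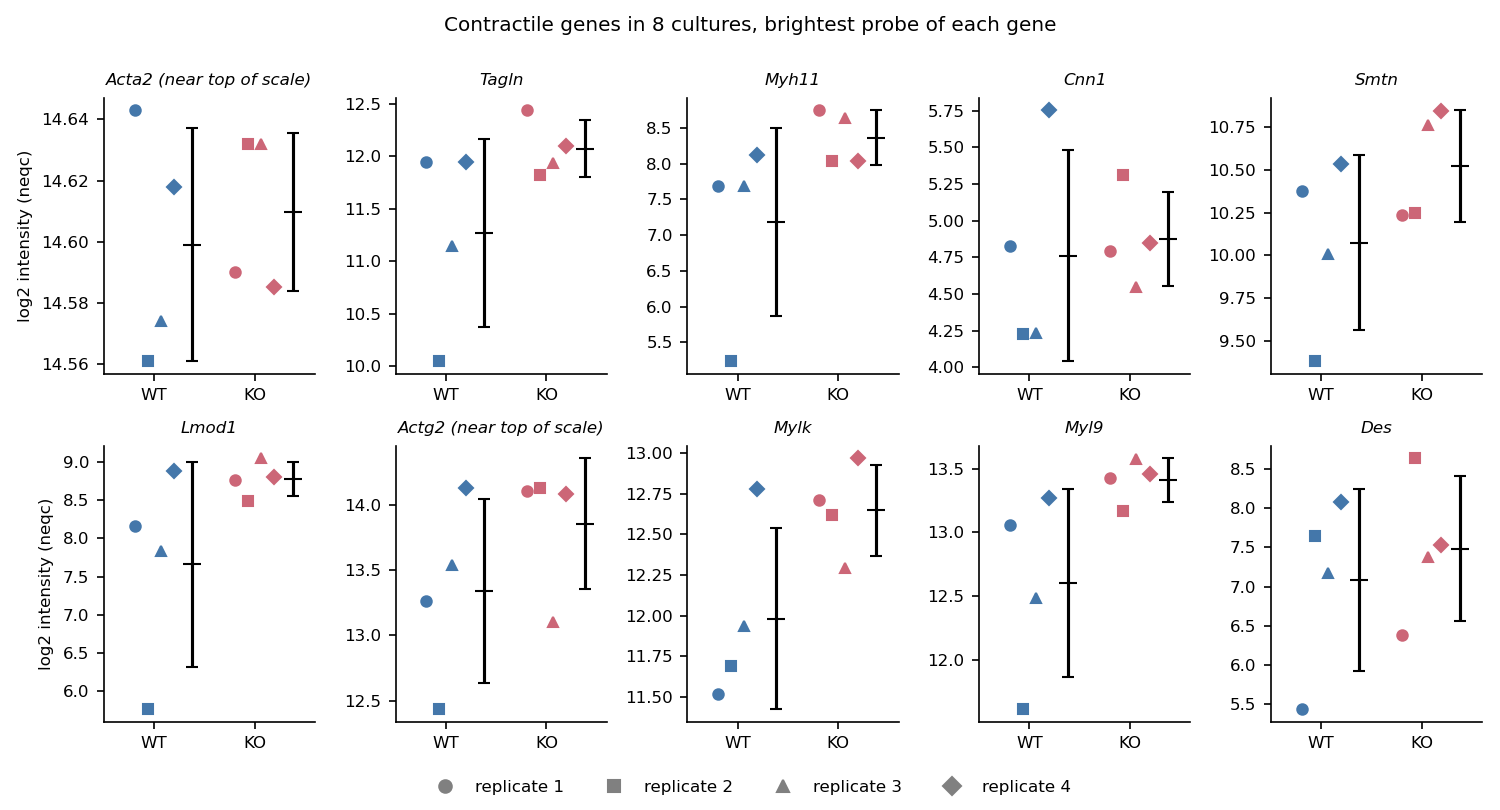
Log2 intensity of the brightest kept probe of each of the 10 genes in the 4 WT (blue) and 4 KO (red) cultures, with the symbol giving the replicate number and black bars the mean and SD (n = 4). Each panel has its own axis, and that of Acta2 spans a far narrower range than the others. WT replicate 2 is the lowest culture in 8 of the 10 panels.

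The actins and myosin form the sliding filaments. Acta2 encodes α smooth muscle actin, the actin most used as a marker of these cells, and was measured by 5 probes. Its brightest probe (ILMN_2693895) read 14.64, 14.56, 14.57 and 14.62 in WT and 14.59, 14.63, 14.63 and 14.59 in KO, in the order of replicates 1 to 4 as for every gene below. Its log2 difference was 0.01, with an interval from -0.27 to 0.29. That probe lay at 84.6% to 93% of the brightest signal on each array before normalization, which may leave it little room to read higher. Saturation was not tested. The highest value any probe reached was 14.76, and a probe counts here as near the top of the scale if it lay within 1 log2 unit of that on at least 4 arrays. 231 of all 46237 probes were near the top (0.5%), and 5 of the 21 contractile probes were, namely 4 of Acta2 and the 1 of Actg2.

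The next Acta2 probe (ILMN_2710354) read 14.53, 13.06, 14.25 and 14.51 in WT and 14.51, 14.59, 14.50 and 14.53 in KO. In 7 cultures it was near the top, and WT replicate 2 alone was below. The same holds for the next 2 probes (ILMN_2710353 and ILMN_2923445), which stood at 12.83 and 12.91 in WT replicate 2 and between 14.08 and 14.62 in every other culture. Before normalization these 3 probes read 7936, 6658 and 7127 in WT replicate 2, at 31.4%, 26.3% and 28.2% of that array's brightest probe. The standard error between the 35, 50 and 36 beads was 3.81%, 2.94% and 3.59% of those readings. The log2 differences of the 3 probes were 0.44, 0.55 and 0.52, and 0.10, 0.16 and 0.16 without WT replicate 2.

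The remaining Acta2 probe (ILMN_1237242) was dim and far from the top of the scale. It read 6.78, 5.12, 6.79 and 7.80 in WT and 8.16, 7.38, 7.83 and 6.87 in KO. WT replicate 4 lay among the KO values and the groups overlapped. Its mean was 6.62 ± 1.11 (SD, n = 4) in WT, against 7.56 ± 0.56 (SD, n = 4) in KO, a log2 difference of 0.94 with a 95% confidence interval from -0.24 to 2.12, and the exact two-sided permutation p was 0.143. The difference was 0.44 without WT replicate 2 and 0.52 in the authors' value table.

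**Figure D2:**
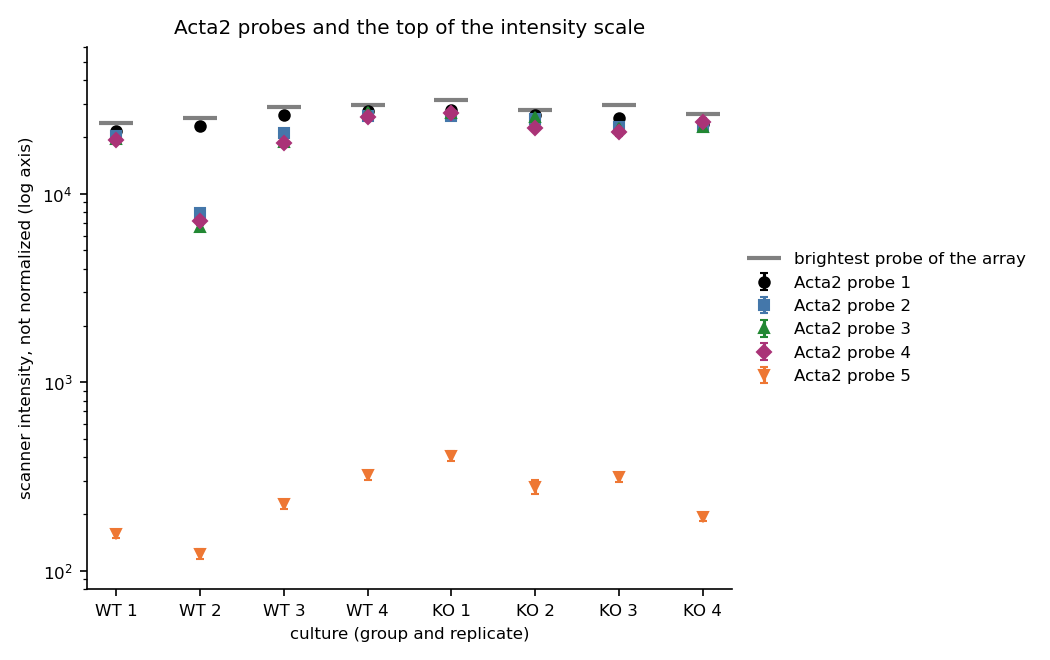
Scanner intensity before normalization, on a log axis, for the 5 Acta2 probes in each culture, with bars for the standard error between beads (mostly smaller than the symbols) and grey dashes for the brightest probe of each array. In 7 cultures probes 1 to 4 crowd under the grey dash, and in WT replicate 2 probes 2 to 4 drop to between 6658 and 7936 while probe 1 stays at 22740.

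Actg2 encodes the γ smooth muscle actin known best from the gut and other visceral smooth muscle. Its probe (ILMN_2839313) read 13.26, 12.43, 13.54 and 14.13 in WT and 14.10, 14.13, 13.10 and 14.08 in KO. 3 KO cultures and WT replicate 4 were nearly level, close to the top of the scale, and KO replicate 3 lay below WT replicates 1 and 3. The log2 difference was 0.51 with an interval from -0.35 to 1.37 (exact permutation p = 0.371), and 0.21 without WT replicate 2. The coding sequences of the actins are known to be closely alike, and whether the probes of Acta2 and Actg2 also take up RNA of other actin genes was not tested.

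Myh11, the smooth muscle myosin heavy chain and the most selective marker of the lineage, had the widest gap between group means of the 10 genes with these settings over all 8 cultures. Its probe (ILMN_2622217) read 7.69, 5.23, 7.69 and 8.12 in WT and 8.75, 8.03, 8.64 and 8.03 in KO. WT replicate 2 lay far under the other WT cultures, and WT replicate 4 overlapped the 2 lower KO cultures. The means were 7.18 ± 1.31 (SD, n = 4) and 8.36 ± 0.38 (SD, n = 4), a log2 difference of 1.18 or 2.27-fold, with a standard error of 0.58 and an interval from -0.14 to 2.50. The limma adjusted p was 0.828 and the exact permutation p 0.0857. The difference was 0.53 without WT replicate 2, where Des and Mylk were wider at 0.58 and 0.57, and 0.75 in the authors' value table, where Lmod1 was wider at 0.77.

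Light chain phosphorylation is the switch of contraction, and its 2 members here were Myl9 and Mylk. Read by their brightest probes, they had the smallest unadjusted limma p of the 10 genes. For Mylk this rank depended on the probe and the test. By exact permutation p, Myh11 (0.0857) came before Mylk (0.114). Myl9, the regulatory light chain, read 13.06, 11.61, 12.48 and 13.27 in WT and 13.43, 13.17, 13.58 and 13.46 in KO through its brighter probe (ILMN_2718662). WT replicate 4 passed only the lowest KO culture. The means were 12.60 ± 0.74 (SD, n = 4) and 13.41 ± 0.17 (SD, n = 4), a log2 difference of 0.80 with an interval from 0.04 to 1.57, an unadjusted p of 0.0421, an adjusted limma p of 0.828 and an exact permutation p of 0.0571. A second Myl9 probe (ILMN_2652458) gave 0.92 and placed the WT cultures in the same order. Without WT replicate 2 the probes gave 0.47 and 0.54.

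Mylk, the kinase that phosphorylates Myl9, was read by 3 probes. The brightest (ILMN_1218347) gave 11.52, 11.69, 11.94 and 12.78 in WT and 12.71, 12.62, 12.29 and 12.97 in KO. Here WT replicate 1, not WT replicate 2, was lowest, and WT replicate 4 stood above 3 of the 4 KO cultures. The log2 difference was 0.67 with an interval from 0.02 to 1.32, an unadjusted p of 0.045, an adjusted limma p of 0.828 and an exact permutation p of 0.114. It was 0.57 without WT replicate 2. The other 2 Mylk probes gave 0.80 and 0.74, with WT replicate 2 lowest on both at 9.49 and 9.60, and 0.48 and 0.46 without it. Their unadjusted limma p was 0.103 and 0.108. With the mean of all kept probes of a gene, the unadjusted limma p was 0.038 for Myl9, 0.0563 for Smtn, 0.0714 for Myh11 and 0.0756 for Mylk. The Mylk locus is known to encode a long and a short kinase and the kinase-free protein telokin, and which of these transcripts each probe reads was not analysed here.

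Tagln, Cnn1, Smtn and Lmod1 encode actin-binding proteins of the thin filament. Tagln (SM22α, or transgelin) read 11.94, 10.05, 11.14 and 11.94 in WT and 12.44, 11.82, 11.93 and 12.10 in KO (ILMN_1243652). WT replicates 1 and 4 lay within the KO range, and WT replicates 2 and 3 lay below it. The means were 11.27 ± 0.90 (SD, n = 4) and 12.07 ± 0.27 (SD, n = 4), a log2 difference of 0.80 with an interval from -0.12 to 1.73 (exact permutation p = 0.171). It was 0.40 without WT replicate 2. In scanner units this gene ran from 1113 in that culture to 6118 in KO replicate 1, with a bead error of at most 4.25% of any reading.

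Lmod1, a leiomodin that starts new actin filaments, read 8.16, 5.77, 7.83 and 8.87 in WT and 8.76, 8.49, 9.04 and 8.80 in KO (ILMN_2604885). The KO cultures lay close together, and WT replicate 4 was among them. The WT SD of 1.33 was 5.93 times the KO SD of 0.23, and without WT replicate 2 the WT SD was 0.53, or 2.36 times. The log2 difference was 1.12 with an interval from -0.19 to 2.42 (exact permutation p = 0.114), and it was 0.48 without WT replicate 2, and 0.77 in the authors' value table.

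Smtn encodes smoothelin, a marker of contractile smooth muscle, and was read by 3 probes. The brightest of these (ILMN_2695181) read 10.37, 9.38, 10.01 and 10.54 in WT and 10.23, 10.25, 10.76 and 10.85 in KO, and the KO cultures of slide 2 were the 2 highest. Its log2 difference was 0.45 with an interval from -0.19 to 1.08, 0.22 without WT replicate 2, 0.17 within slide 1 and -0.06 within slide 1 without WT replicate 2. The next probe gave 0.53, and 0.23 without that culture. The dimmest (ILMN_2621581) read 6.49, 6.23, 6.00 and 6.75 in WT and 6.77, 6.89, 7.39 and 7.28 in KO. This was the 1 contractile probe of 19 for which the groups did not overlap, against 2.2% of all 21275 kept probes that were higher in KO without overlap. Its log2 difference was 0.72 with an interval from 0.21 to 1.22, an unadjusted p of 0.0109, an adjusted limma p of 0.729 and an exact permutation p of 0.0286, the smallest that 4 against 4 allows. It was 0.67 without WT replicate 2, 0.42 in the authors' value table and 0.38 to 0.85 over all alternatives, and the gap between the highest WT and the lowest KO culture was narrow.

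Cnn1, the calponin that binds actin and slows the myosin cycle, was near background. It read 4.83, 4.23, 4.23 and 5.75 in WT and 4.79, 5.31, 4.55 and 4.85 in KO (ILMN_1221148). The highest culture was a WT culture and the groups overlapped throughout. The log2 difference was 0.11 with an interval from -0.68 to 0.91, and it was -0.06 without WT replicate 2 and 0.44 without WT replicate 4. With 1 probe this close to background, a difference in Cnn1 was not detectable here.

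Des encodes desmin, the muscle intermediate filament that links the contractile apparatus to the cell surface, and it ordered the cultures in its own way. It read 5.44, 7.64, 7.18 and 8.08 in WT and 6.38, 8.63, 7.38 and 7.53 in KO (ILMN_2836982). The lowest values came from WT replicate 1 and KO replicate 1, and WT replicate 2, lowest for 8 of the other 9 genes by their brightest probes, was the third highest for Des. The log2 difference was 0.40 with an interval from -1.03 to 1.82 (exact permutation p = 0.60), and 0.24 in the authors' value table. Leaving out WT replicate 2 gave 0.58, leaving out WT replicate 1 gave -0.15 and leaving out KO replicate 2 gave 0.01.

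**Figure D3:**
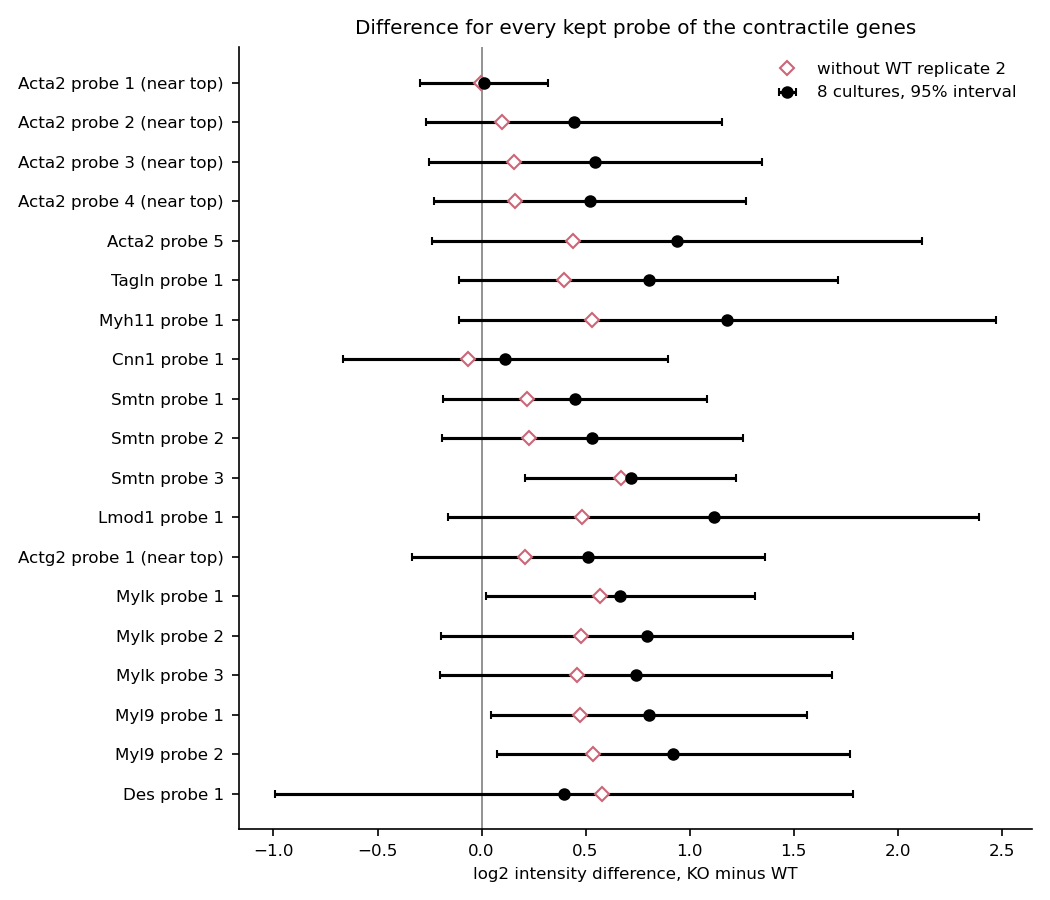
Log2 intensity difference, KO minus WT, for the 19 kept probes of the 10 genes, with black points for all 8 cultures, bars for the 95% confidence interval of limma and open red diamonds for the difference without WT replicate 2. Probes of a gene are numbered from brightest to dimmest. All 19 black points lie above 0 and 4 intervals exclude it, and without WT replicate 2 the point of the brightest Acta2 probe and that of Cnn1 lie below 0.

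By single probes, 19 of the 19 kept probes were higher in KO by sign, against 52.3% of all kept probes, and 4 had an unadjusted p under 0.05, against 3.71% in that direction. The 19 include the Cnn1 probe, near background and detected in 1 of 4 WT and 3 of 4 KO cultures. Without WT replicate 2, 17 of the 19 were higher by sign, and 1 of the 19, the dimmest Smtn probe, had an unadjusted p under 0.05 (0.0271), against 2.56%. With 1 culture left out that count was 1 without WT replicate 3, KO replicate 1 or KO replicate 4, 2 without KO replicate 3 and 11 without WT replicate 4. Probes of one gene share their transcript and are not separate evidence. The same comparison within slide 1, where 2 KO cultures stood beside the 4 WT cultures, had 10 of 10 genes higher by sign, against 46% of all genes, with a median of 0.69. Within slide 1 the log2 difference was 1.21 for Myh11, 0.97 for Lmod1, 0.86 for Tagln and 0.70 for Myl9. Slide 1 holds WT replicate 2, and without that culture, an alternative added after seeing the data, the 4 differences were 0.56, 0.34, 0.45 and 0.36, the median was 0.41 and 8 of 10 genes were higher by sign.

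The contractile genes were less even among the WT cultures than among the KO cultures. The SD was larger in WT for 10 of the 10 genes, against 47.3% of all genes, and without WT replicate 2 for 7 of 10, against 35.3%. Without that culture the WT SD was 0.643, 0.831 and 0.88 times the KO SD for Myh11, Smtn and Actg2. The 10 include Acta2 and Actg2, whose spread the top of the scale may limit. By the mean of centred log2 values over the 8 genes whose brightest probe was below the top of the scale, the WT cultures stood at -0.29, -1.22, -0.36 and 0.50 and the KO cultures at 0.27, 0.37, 0.35 and 0.40. By this mean the 4 KO cultures were close together, WT replicate 4 was above all of them, and the other 3 WT cultures were below. The 8 genes include Cnn1, near background, and Des, which ordered the cultures in its own way. By single genes of the 8, WT replicate 4 was above all KO cultures for Cnn1 only. A mean without Cnn1 and Des was not computed. WT replicate 2 was the lowest culture for 8 of the 10 genes and for 16 of the 19 kept probes, against 21.3% of all genes and 21.8% of all kept probes.

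Over the 8 cultures the genes followed one another to different degrees, as a description over points that share arrays and one low culture. Lmod1 and Myl9 had a Pearson correlation of 0.98, and 0.94 over the 7 cultures without WT replicate 2. Tagln and Myl9 had 0.96, and 0.85 without it. Actg2 went with Mylk at 0.82, and 0.80 without that culture, but with Myl9 at 0.70, and 0.16 without it. Des stood apart, with -0.23 against Tagln and -0.07 against Myl9. The median over the 45 pairs was 0.59, and 0.36 without WT replicate 2.

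Among the other 11849 genes, those most like the 8-gene mean were Tpm1, 4930429B21Rik, Stx1a, Gcnt2, Tgfb1i1, Ankib1, Itga1 and Mllt11, with Pearson correlations from 0.947 to 0.983 over the 8 cultures and Spearman correlations from 0.714 to 0.952. The median over all other genes was 0.008, and 53 genes (0.447%) exceeded 0.9. Over the 7 cultures without WT replicate 2 the 8 genes had 0.835 to 0.952, and over the 6 left without WT replicates 2 and 3, the cultures farthest from the median, 0.73 to 0.946. Tpm1, an actin-binding tropomyosin, stood at 14.24, 13.82, 14.17 and 14.46 in WT and 14.47, 14.42, 14.40 and 14.42 in KO, also near the top of the scale. Tgfb1i1, a focal adhesion protein known as Hic-5, read 11.36, 10.59, 11.38 and 11.82 in WT and 11.44, 11.68, 11.75 and 11.88 in KO. Itga1, a collagen-binding integrin subunit known from smooth muscle, read 7.66, 6.52, 7.64 and 8.42 in WT and 8.47, 7.98, 8.22 and 8.67 in KO. Each of these 3 was lowest in WT replicate 2, and none passed the limma threshold.

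Genes that work with the 10 were followed through lists, none of whose members passed an adjusted p of 0.05 in limma. Of 19 tested genes in a list of other smooth muscle differentiation genes, 18 were higher in KO by sign, with a median log2 difference of 0.68, or 16 of 19 and 0.33 without WT replicate 2. Mustn1, a small muscle nuclear protein, read 9.56, 7.42, 8.68 and 9.32 in WT and 10.48, 9.27, 11.20 and 10.35 in KO, a difference of 1.58 with a standard error of 0.53, or 1.14 without WT replicate 2. Csrp1, a LIM protein of the actin cytoskeleton, and Lpp, a LIM protein of adhesion sites, had differences of 0.73 (standard error 0.25) and 0.53 (standard error 0.21), or 0.54 and 0.49 without WT replicate 2. 4 of the 19 genes (against 2.61% of all genes) had an unadjusted p under 0.05 in the direction of KO. Leaving out WT replicate 1, WT replicate 2 or KO replicate 3 gave 3, and leaving out either WT replicate 3 or KO replicate 1 gave 2. The count was 5 without KO replicate 2, 4 without KO replicate 4 and 7 without WT replicate 4. With any 1 culture left out, 1.76% to 3.61% of all genes passed in that direction.

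Thin filament and actin-linked partners were higher in KO by sign in 11 of 12 tested genes, with a median of 0.26, and in 8 of 12 with a median of 0.10 without WT replicate 2. Actn4, an actin crosslinker, stood at 0.80, and Tpm3 and Tagln2, a tropomyosin and a transgelin of many cell types, at 0.28 and 0.26, or 0.59, 0.22 and 0.17 without WT replicate 2. Tpm3 read 12.05, 11.74, 12.00 and 11.91 in WT and 12.25, 12.08, 12.22 and 12.27 in KO. All KO values of Tpm3 were above all WT values, as for 191 of the 11859 genes tested (1.61%). Its exact permutation p was 0.0286, the smallest that 4 against 4 allows, and it was named for its small p in the list. Genes of light chain phosphorylation were higher by sign in 15 of 18 tested, with a median of 0.29, or 12 of 18 and 0.13 without WT replicate 2. Ppp1cb, the catalytic subunit of myosin phosphatase, stood at 0.38, Rock1, a kinase that restrains that phosphatase, at 0.44 (0.31 without WT replicate 2) and Ppp1cc, a related phosphatase subunit, at -0.70. Ppp1cc stood at -0.63 without WT replicate 2. Its KO values were 9.62 and 9.34 on slide 1 and 8.23 and 8.52 on slide 2, which held KO cultures only. Mylk and Ppp1cb, whose products are known to act in opposite directions on the light chain, were both higher in KO by sign.

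The 8 partners of desmin filaments were all higher by sign, with a median of 0.35, and 6 of 8 with a median of 0.04 without WT replicate 2. Flnc, Lmna and Cryab, a filamin, a nuclear lamin and a small heat shock protein, stood at 0.46, 0.46 and 0.76, and at 0.32, 0.19 and 0.22 without it. Regulators of the contractile program, SRF and myocardin among them, were higher by sign in 8 of 12 tested, with a median of 0.15, or 6 of 12 and -0.01 without WT replicate 2. Srf and Myocd, named for their role, had differences of 0.06 (standard error 0.18) and 0.19 (standard error 0.23). The listed genes with the smallest p were all lower in KO by sign. Klf4, a factor known to repress contractile genes, read 10.29, 10.13, 10.34 and 10.54 in WT and 10.03, 9.86, 9.49 and 9.64 in KO, a log2 difference of -0.57 with a standard error of 0.17 and an adjusted limma p of 0.828, and its groups did not overlap (exact permutation p = 0.0286). Klf4 stood at -0.63 without WT replicate 2. The KO cultures of slide 2, which held KO cultures only, were the lowest for Klf4. Gata6, a transcription factor of vascular smooth muscle, stood at -0.27, also without overlap, and Mef2d at -0.73. Of the 12 listed genes tested, 2 were lower in KO without overlap, against 198 of all 11859 genes. These genes were named for their small p in the list.

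Cytoskeletal counterparts outside the smooth muscle set gave a mixed picture. Of the nonmuscle genes 3 were tested and all were higher by sign, with a median of 0.15, and Myh10, Actb and Myh9 stood at 0.61, 0.15 and 0.09. Without WT replicate 2 the median was 0.07 and Actb stood at 0.07. Of the striated muscle counterparts 11 were tested, 5 higher and 6 lower by sign, with a median of -0.04, or 3 of 11 higher and -0.17 without WT replicate 2. Tnnc1 and Tnnt1, troponin genes, stood at 0.50 and -0.75, and at 0.40 and -0.38 without it. Myh7, a striated myosin heavy chain, was detected in 4 of 4 WT cultures and 0 of 4 KO cultures. Its mean was 5.22 ± 0.19 (SD, n = 4) in WT against 4.35 ± 0.38 (SD, n = 4) in KO. Its probe was thus kept through WT alone, and its values lay near background. By group means it was at least 1.51-fold lower in KO (adjusted limma p 0.828). That bound sets WT against the lowest signal of a detected probe or the probe's own, whichever was higher, and no interval was computed for it. Ckm, Myh3, Myh4, Myh6, Myl3, Myl7 and Tnnc2 were detected on 0 arrays.

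**Figure D4:**
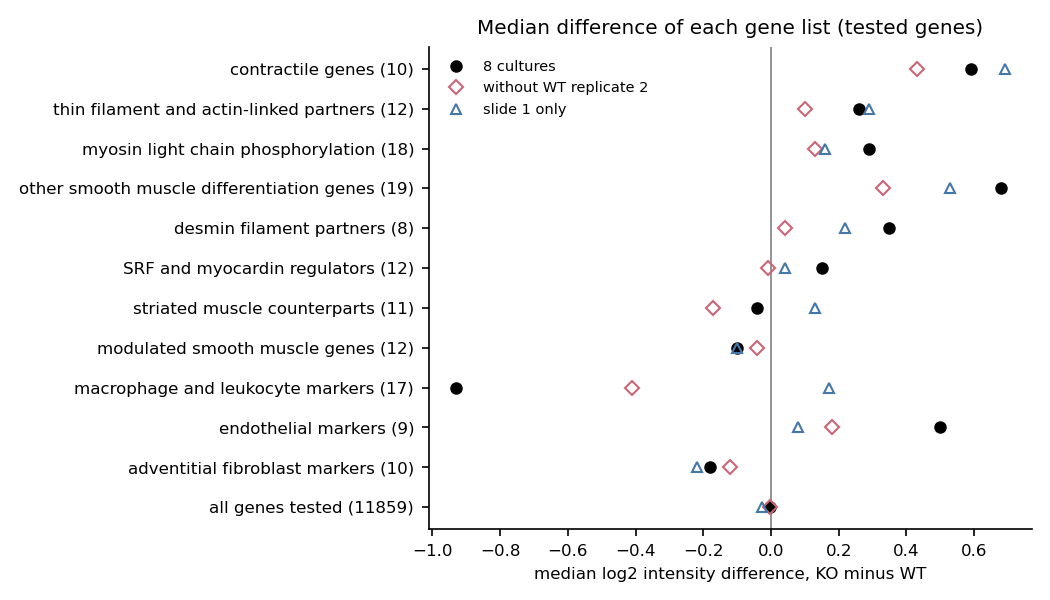
Median log2 intensity difference, KO minus WT, over the tested genes of each list (number in parentheses), for all 8 cultures (black), without WT replicate 2 (open red) and within slide 1 (open blue). The contractile genes stand at 0.59, 0.43 and 0.69, and the macrophage and leukocyte markers at -0.93, -0.41 and 0.17.

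Markers of other cells went both ways in WT replicate 2, the culture with low contractile values. In this culture the summed linear intensity of the 10 genes was 0.655 of the mean of 8 cultures, that of 10 adventitial fibroblast markers was 1.80 and that of 17 macrophage and leukocyte markers 2.50. A linear sum is weighted to the brightest probes. The contractile sum in WT replicate 2 came mostly from the brightest Acta2 probe, near the top of the scale. That probe read 14.56 there and 14.57 to 14.64 in the other cultures, so 0.655 does not describe the dimmer genes. The sums of 9 endothelial, 4 Schwann cell and 5 pericyte markers stood there at 0.567, 0.403 and 0.945. WT replicate 1 had 1.82 for the macrophage markers and 0.905 for the contractile genes. The macrophage sums ranged from 6850 to 66300 in WT and from 4660 to 35700 in KO, and 16 of the 17 markers were detected on all 8 arrays. Itgam and Cd74 were detected on too few arrays to be tested. The fibroblast sums ranged from 13700 to 31800 in WT and from 11500 to 17800 in KO, and without WT replicate 2 the highest WT sum was 18000. The part of these cells in the contractile differences was not tested. In these bulk samples, fewer smooth muscle cells and less contractile RNA per cell cannot be told apart.

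By gene, 17 of 17 macrophage markers were lower in KO by sign, with a median of -0.93 over 8 cultures, -0.41 without WT replicate 2 and 0.17 within slide 1, where 15 of 17 were higher. C1qa, Cd53 and Cd52 stood at -1.79, -0.90 and -1.57, and at -1.29, -0.49 and -1.0 without WT replicate 2. The contractile median was 0.69 within slide 1. Fibroblast markers were lower by sign in 8 of 10, with a median of -0.18, or -0.12 without WT replicate 2. Pi16, Pdgfra and Dcn stood at -0.66, -0.72 and -0.51, and at -0.32, -0.21 and -0.11 without that culture. Genes linked to modulated, matrix-making smooth muscle were lower in 8 of 12, with a median of -0.10, or -0.04 without WT replicate 2, and their sum was highest in WT replicate 2 at 1.51 of the mean. Col3a1, a fibrillar collagen, read 12.42, 13.91, 13.44 and 13.43 in WT and 12.82, 12.73, 11.19 and 11.63 in KO, a difference of -1.21, with Col1a2 at -0.95 and Thbs1 at 0.66. Without WT replicate 2 these 3 stood at -1.0, -0.69 and 0.42. Col1a2 read 12.44 and 12.99 in the KO cultures of slide 1 and 11.02 and 11.39 in those of slide 2, against a WT mean of 12.91. For both collagens the KO cultures of slide 2 were the lowest, and slide 2 held KO cultures only.

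Endothelial markers were higher by sign in 8 of 9 tested, with a median of 0.50, or 0.18 without WT replicate 2, where their sum was lowest at 0.567 of the mean. Robo4, Emcn and Pecam1 stood at 0.90, 0.75 and 0.52, and at 0.78, 0.39 and 0.38 without that culture. Robo4 was detected in 1 of 4 WT and 3 of 4 KO cultures and Pecam1 in 3 of 4 and 4 of 4, both near background. Of the 9 genes, 5 were detected on all 8 arrays. Erg was detected on 0 arrays and Vwf on 1. Pericyte markers were higher in 2 of 5, with a median of -0.08, or -0.15 without WT replicate 2, and Cspg4, Pdgfrb and Abcc9 stood at 0.60, -0.30 and -0.30, and at 0.29, -0.31 and -0.20 without it. Schwann cell markers were higher in 3 of 4, with a median of 0.40, or 0.20 without WT replicate 2, and S100b, Sox10 and Cdh19 stood at 0.35, 0.46 and 0.52, and at 0.25, 0.16 and 0.38 without it. None of these cell markers passed an adjusted p of 0.05.

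**Figure D5:**
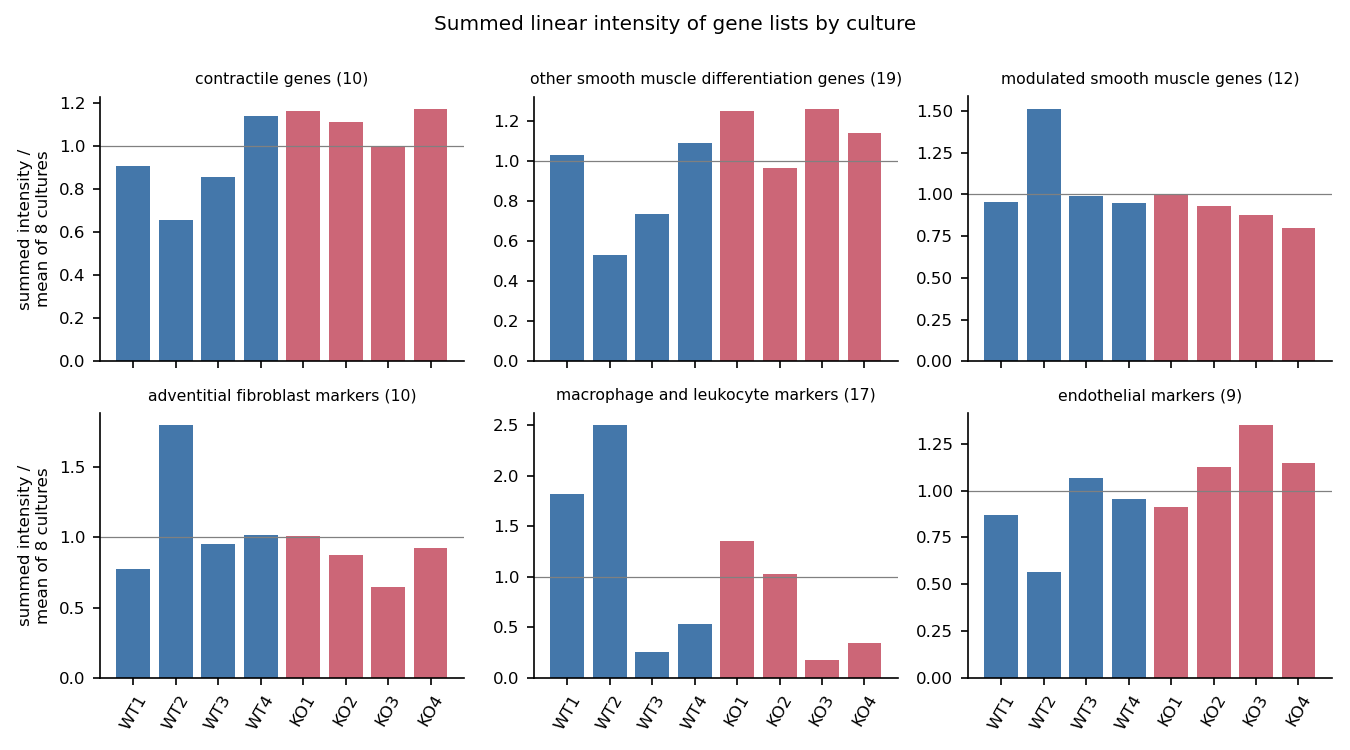
Summed linear intensity of the tested genes of 6 lists in each culture, relative to the mean of the 8 cultures (grey line), with WT in blue and KO in red and each axis starting at 0. WT replicate 2 has the lowest bar for the contractile genes (0.655) and the highest for the fibroblast (1.80) and macrophage (2.50) markers. The contractile bars are weighted to the brightest Acta2 probe, which lay near the top of the scale in every culture.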

How the data were processed

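Total RNA of 4 WT and 4 KO cultures was hybridized to Illumina bead arrays. Per the file headers, the deposited scanner table gives for each probe the mean intensity of its beads, their SD, the count of beads (26 to 70 for the contractile probes) and a detection p-value. A second table deposited by the authors holds intensities normalized between arrays on a linear scale, and the sources used here do not name the method.

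Identifiers printed beside the scanner intensities were not those of the probes measured (Spearman correlation with the value table of -0.0083 to -0.0047 per array). Rows were therefore matched by their 8 within-array ranks, 46237 of 46237 one to one, and named by the value table. Platform gene symbols were updated through RefSeq genes of assembly GRCm38.p6, used for names only. No sequence of a probe, promoter or protein was used here.

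Intensities were corrected with neqc of limma 3.58.1 (R 4.3.3) at an offset of 16. The detection p-values set its background, which is uncertain for dim probes. The 21275 probes detected (p under 0.05) on at least 4 of 8 arrays were kept, and each gene was read by its brightest kept probe. KO and WT were compared with lmFit and eBayes, two-sided, with Benjamini-Hochberg adjustment over all 11859 genes, or over all kept probes for single probes, at a threshold of 0.05. The intervals are 95% intervals of the gene fit (of the probe fit for dimmer probes and in the plot of probe differences), and exact permutation tests enumerated 70 assignments. The number of arrays limits the precision.

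The contractile genes and all gene lists were chosen with earlier results of these data known. Apart from the 10 genes, those named are the 3 tested genes with the smallest p in each list and the 8 genes most like the contractile mean. Srf, Myocd and the marker genes named as undetected or untested are named outside that rule. Alternatives covered the background correction, normalization, probe filter, choice of probe, slide, replicate number and each culture left out. Same-numbered WT and KO cultures had correlated deviations of 0.318, 0.21, 0.286 and 0.063 for replicates 1 to 4, and the labels do not pair them.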

Additional observations from a re-analysis of the deposited data

Results flagged for a closer look

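Of 38 groups of 4 cultures examined over the 19 kept contractile probes, 2 held a culture far from the others by Dixon's test, which flags about 1 in 20 groups by chance. Myh11 stood at 5.23 in WT replicate 2, against 7.68 to 8.12 in the other WT cultures. Actg2 stood at 13.10 in KO replicate 3, against 14.08 to 14.13 in the other KO cultures, which lay near the top of the scale.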

How the results depend on the processing

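No contractile gene and no gene at all passed the limma threshold under any of the 20 alternatives, and no contractile probe did under the 18 that apply to probes. At an unadjusted p under 0.05, 681 of the 11859 genes (5.74%) were past it with the settings reported. The median log2 difference of the contractile genes was 0.58 with the value table, with no background correction and with normexp at an offset of 50, 0.63 with median centring, which moved the median of all genes to 0.055, 0.80 without probes near the top of the scale (9 genes) and 0.43 to 0.85 with 1 culture left out. Of 198 values of single contractile genes under an alternative, 191 kept the direction. The 198 are not separate checks. The replicate block and the changes of the probe filter left the differences of the genes tested as reported. Slide as a block and slide 1 alone gave the same differences and were counted separately. With 1 culture left out, Acta2 ranged from -0.001 (WT replicate 2 left out) to 0.03, and Des from -0.15 (WT replicate 1) to 0.76. Cnn1 ranged from -0.06 (WT replicate 2, and again WT replicate 3) to 0.44 (WT replicate 4), and leaving out KO replicate 2 gave -0.03. The brightest probes of these genes have the same ranges. Within slide 1 without WT replicate 2, chosen after seeing the data, the median was 0.41, Acta2 stood at 0, and the 2 brighter Smtn probes at -0.06 and -0.01. With the replicate number as a block (replicate block), 0 genes passed and the median difference was 0.59, since each number occurs once in each group. The adjusted p of Myl9 was then 0.55. With slide as a block the estimates are those of slide 1, since slide 2 held KO cultures only. Background limits the comparison for Cnn1, and the top of the scale may limit it for Acta2 and Actg2. Saturation was not tested, and before normalization Actg2 lay at 20.6% to 68.5% of the brightest signal of its array.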
